A study of Mus musculus with 2 samples.

Results

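Aire-adjacent cells are one of the 15 classes into which the submitters' deposited annotation divides thymic epithelial cells, and they numbered 389 of 9185 annotated cells. They were chosen by that annotation alone, and their UMI counts (unique molecular identifiers, each standing for 1 captured RNA molecule) were taken from the matrix by cell barcode. The cells came from C57BL/6 mice and were sorted as mTEClo, a gate for medullary thymic epithelial cells, without podoplanin (Pdpn) or CD104 (Itgb4), after digestion of the thymus and depletion of CD45-bearing cells. Hashed samples, each marked by a barcoded antibody against H2-Kb, were pooled in a single 10x 3' run. The 3 control samples (Hnf4ctrl) carried Foxn1(cre/+), Hnf4a(fl/+) and Hnf4g(+/-). The 4 mutant samples (Hnf4dTEC) carried Foxn1(cre/+), Hnf4a(fl/fl) and Hnf4g(-/-). Controls therefore also carried Cre under Foxn1, which acts in thymic epithelium, along with 1 floxed copy of Hnf4a and 1 lost copy of Hnf4g, and the labels mark Hnf4g as -/- rather than floxed. The labels do not say that the samples were separate animals, so p-values measure the spread between these samples.

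Medullary thymic epithelial cells display genes of other tissues to developing T cells. The nuclear protein AIRE switches on many of these genes, FEZF2 controls a further set, and MHC class II molecules carry the resulting peptides to T cells. Some medullary cells take on programmes of cells outside the thymus, such as tuft, microfold, keratinocyte or enterohepatic cells. HNF4A and HNF4G are nuclear receptors that maintain gene programmes in liver and gut epithelium. The comparison of genotypes asks whether Aire-adjacent cells changed when both were removed.

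There were 32, 39 and 99 Aire-adjacent cells in the controls (170 in all) and in the mutants 64, 50, 61 and 44 (219 in all). The median cell had 11325 UMIs and 3765 genes, and the summed counts were 395483 to 1295926 UMIs per sample. The annotation gives each cell to a single hashed sample, so it cannot itself show cells of mixed origin. Scrublet, a doublet caller, marked 10 of the 389 cells, and 0 of them had another sample's hash tag on top. Differences between classes are descriptions with no test, since the classes were made from these same genes. Their levels are CPM, UMI counts scaled to a common total per class and sample, in control samples, given as mean ± SD over 3 samples, except for Entero-hepato cells, where only the 2 control samples with at least 10 such cells were used.

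Aire-adjacent cells combined Aire and Fezf2 RNA with MHC class II RNA that was high among these sorted cells, and had less Aire RNA than Aire-expressing cells. Aire was at 195 ± 54.8 CPM (SD, n = 3), with 197, 139 and 248 CPM in the control samples, against 754 ± 16.4 CPM (SD, n = 3) in Aire-expressing cells. Aire-adjacent cells ranked 4 among 15 classes, after Aire-expressing, TA and Transitional cells, and above Tuft cells at 11.8 ± 1.57 CPM. All 3 Aire-adjacent values lay below the mean of Transitional cells, 353 ± 68.2 CPM. Fezf2 was at 492 ± 48.2 CPM, next to 570 ± 63.9 CPM in Aire-expressing cells, 479 ± 49.8 CPM in Transitional cells and 428 ± 31.0 CPM in TA cells. Aire-adjacent cells ranked 2 for Fezf2, and the gaps to their neighbours in that order, Aire-expressing and Transitional cells, were smaller than the sum of the SDs. Foxn1, the factor that sets up thymic epithelium and drives the Cre, was at 83.9 ± 18.4 CPM against 83.2 ± 6.47 CPM in Aire-expressing cells.

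**Figure D1:**
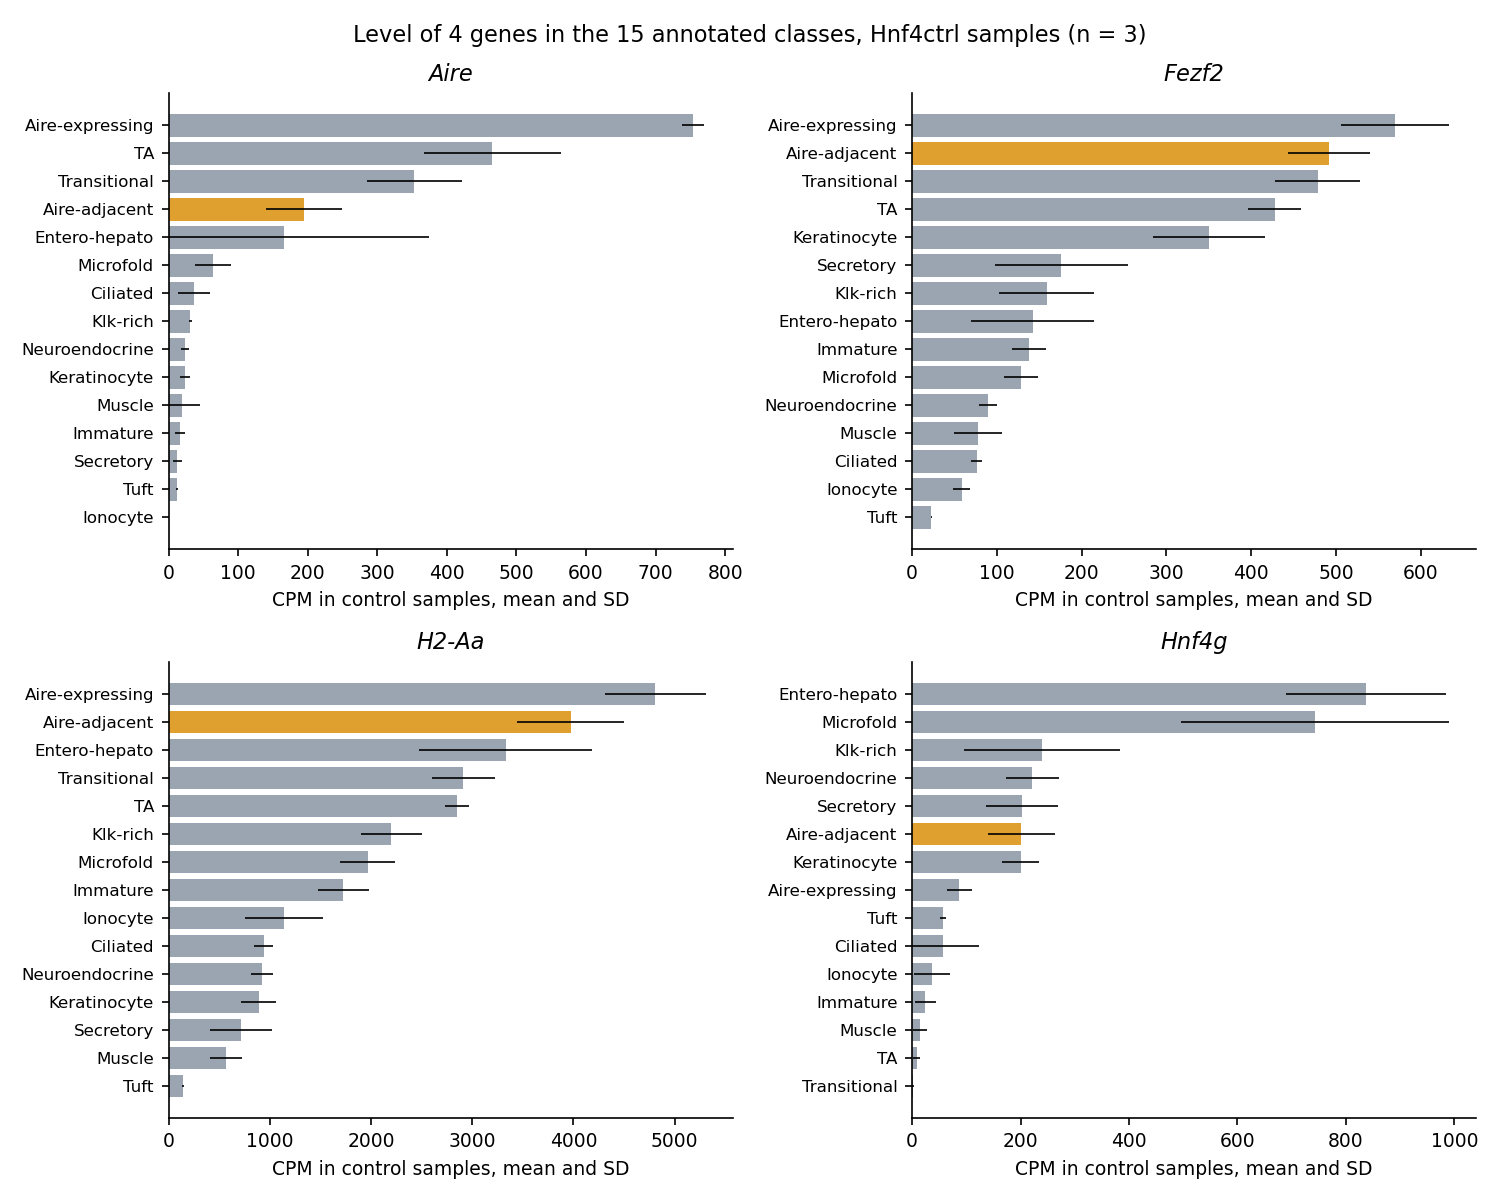
Level of Aire, Fezf2, H2-Aa and Hnf4g in the 15 annotated classes of the control samples, in CPM; bars are means and lines SDs of 3 samples, including samples with few cells of a class (8 Entero-hepato cells in control sample 1). Aire-adjacent cells, in orange, ranked 4 for Aire, 2 for Fezf2 and H2-Aa, and 6 for Hnf4g.

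Within the mTEClo gate, MHC class II RNA of the class was above that of all other annotated cells together. Cells outside the gate were not measured, and surface protein was not looked at. The 14 genes of the MHC class II list summed to 25425 ± 3039 CPM, against 31777 CPM in Aire-expressing cells, 17985 CPM in Entero-hepato cells and 9286 CPM over all other annotated cells. H2-Aa, a class II chain, was seen in 158 of 162 control cells after each cell was thinned to 5000 UMIs. The costimulatory ligand Cd80 was at 86.3 ± 41.7 CPM, against 102.3 ± 6.90 CPM in Aire-expressing cells. The cell cycle list summed to 244 ± 13.6 CPM against 684 CPM in Aire-expressing cells, and Mki67 was at 1.61 CPM. Pdpn at 1.36 CPM and Itgb4 at 19.4 CPM were low, as the sort selects. Epcam, the epithelial adhesion molecule, was at 719 ± 51.5 CPM, and Ptprc, which encodes CD45, at 1.03 CPM.

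The genes with the highest ratio over all other annotated cells were 2200002J24Rik (26.4-fold), Gm10165 (19.6-fold), Fcer2a (17.4-fold), Erg (15.3-fold), Il12a (13.7-fold), Klk1b27 (11.5-fold), Prokr2 (11.4-fold), Hsd11b1 (11.3-fold) and Il23r (11.04-fold). Ly6i, Grm7, Stac, Gm10248, Cd52 and A330008L17Rik followed. Fcer2a encodes the low affinity IgE receptor, Il12a a subunit of interleukins, Il23r an interleukin receptor chain and Erg an ETS family transcription factor. Il12a was at 172 ± 66.3 CPM, against 64.4 CPM in Aire-expressing cells and 12.6 CPM in all other cells. Fcer2a was less even, at 336, 87.8 and 64.8 CPM in the controls. Over the 12 myeloid and B cell markers the class held 1569 ± 581 CPM against 294 CPM in all other cells. Most of it was Lyz2, the lysozyme of macrophages, at 1448 ± 527 CPM, with Csf1r at 29.5 CPM, Cd79b at 33.4 CPM and Itgax at 0 CPM.

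Against Aire-expressing cells, the genes with the highest ratios were Gm10248 (41.4-fold), Klk1b27 (36.7-fold), Cyp2a5 (29.5-fold), Fabp9 (25.5-fold), Rptn (23.4-fold), Resp18 (16.4-fold), Klk1 (16.4-fold), Tmem163 (12.5-fold), Abhd11os (12.3-fold) and Lipc (11.8-fold). These are products of different tissues: Klk1 a kallikrein of salivary gland and kidney, Cyp2a5 a liver cytochrome P450, Rptn an epidermal protein and Resp18 a neuroendocrine secretory protein. Resp18 was at 1158, 1231 and 1326 CPM in the control samples, so it was even between samples. Cyp2a5, at 941 ± 655 CPM, and Klk1, at 708 ± 506 CPM, were not. The genes lowest against Aire-expressing cells were Hba-x, Defb19, Hba-a1, Gal, Psca, Pcdh9, S100a9, Ly6c2, Mt4 and Igfbp6. S100a9, a calcium-binding protein of neutrophils, was at 30.6 CPM against 1009 CPM in Aire-expressing cells, and Psca, a stem cell antigen of prostate, at 3.84 against 241 CPM. The 13 measured genes of a list of antigens of the Aire stage summed to 1063 ± 536 CPM against 3716 CPM in Aire-expressing cells.

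Entero-hepato cells, which carry the gut and liver programme, were unlike the class in their leading genes. Tff3, a mucosal trefoil peptide, was at 13.8 ± 12.1 CPM in Aire-adjacent and 2168 CPM in Entero-hepato cells. Apoc3 was at 7.17 against 1331 CPM, Lgals4 at 4.24 against 897 CPM and Apoa4 at 7.35 against 896 CPM. Reg3b, Ms4a10, Tff2, Ifi27l2b, Ccl7 and Agr2 were also among the genes lowest against Entero-hepato cells. Higher in Aire-adjacent cells were Crip3 (266 against 3.97 CPM), Klk1, Tmem163, S100a2, S100a3, Tafa2, Utf1, Klk1b27, A330008L17Rik and Tbata (987 ± 570 against 56.5 CPM).

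Over 15994 genes, the summed profile of the class had a Spearman rho of 0.869 with Entero-hepato cells, 0.864 with Klk-rich, 0.857 with Neuroendocrine and 0.853 with Aire-expressing cells, down to 0.671 with Ciliated cells. These values describe summed libraries from one run, and genes are not independent replicates. Cell by cell, 78.4 ± 3.12% (SD, n = 3) of the nearest neighbours of control Aire-adjacent cells were of the same class, and over both genotypes the share, 78.2%, was lower in only Klk-rich and Entero-hepato cells. Aire-expressing cells gave 5.16%, Keratinocyte cells 4.77%, Tuft cells 4.10%, Neuroendocrine cells 3.34% and Entero-hepato cells 1.42% of their neighbours. In turn, these classes made up 8.55, 8.36, 44.8, 7.70 and 0.925% of all annotated cells. Tuft cells were thus far rarer among the neighbours than among all cells. For Entero-hepato cells the control samples lay on both sides of the share of all cells. The order of these shares therefore does not rank the classes by closeness to Aire-adjacent cells. At 5000 UMIs per cell the class had 2344 ± 47.8 genes per cell in controls (mean of sample medians), against 2124 ± 17.6 in Aire-expressing cells, and 2280 ± 39.2 in mutants. This left out 33 shallower cells, and before thinning the medians ran the other way, 3765 genes in Aire-adjacent and 4447 in Aire-expressing cells, whose median cell was deeper at 18154 UMIs.

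Some genes of other tissues were held by few cells, and others were broad. In control cells thinned to 5000 UMIs, the 17 richest of 162 cells carried 94.5% of all Reg3g UMIs, 92.3% of Fabp9, 90.5% of Klk1, 90.3% of Cdkn1c and 76.0% of Cyp2a5. For the genes that most cells carry the same share was 25.1% for H2-Aa and 22.1% for Epcam. Aire lay between, at 55.5%, as did Resp18, at 52.3% with a UMI in 107 cells, and Lyz2, at 64.5% with a UMI in 85 cells. A UMI of any gut list gene was in 157 of the 162 cells. One control cell alone held 488 of the 1165 Reg3g UMIs.

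Clustering the class alone gave 10 sub-clusters, described by their leading genes and not named. The largest, of 75 cells, held 2628 CPM of Cdkn1c, a cell cycle inhibitor, and 498 CPM of Aire. One of 65 cells held 38.5 CPM of Aire; its genes of highest ratio, Chgb, Crabp2 and Tnni1, were in 9.23, 4.62 and 4.62% of its cells, while Ebf2 was in 35.4%. One of 33 cells held Reg3g at 7544 CPM. One of 13 cells held Neurod1, an endocrine transcription factor, at 1414 CPM and 30.7 CPM of Aire. One of 15 cells had a median of 6272 UMIs and was made of 12 control and 3 mutant cells. One of 26 cells, with a median of 21372 UMIs, had the tuft genes Alox5ap in 92.3%, Gnat3 in 73.1% and Lrmp in 100% of its cells, and the haemoglobin genes among its leading genes, Hbb-bs, Hba-a1 and Hba-a2, in 23.1, 3.85 and 3.85%. It held 8639 CPM of the 14 tuft markers, and 8 of its 26 cells were marked as doublets, against 2 marked cells in the other 9 sub-clusters.

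Aire-adjacent cells made up 4.00, 4.26 and 6.27% of annotated cells in controls, against 3.87, 3.63, 4.10 and 3.20% in mutants. The means were 4.84 ± 1.24% (SD, n = 3) and 3.70 ± 0.383% (SD, n = 4). The groups overlapped, since mutant sample 3 lay above control sample 1. The difference did not pass the test, at a log2 fold change of -0.40 (SE 0.29) and an adjusted p of 0.706 over the 15 classes in edgeR's quasi-likelihood test. A two-sided exact permutation test of the percentages gave p = 0.114, where the smallest p that the 35 splits allow is 0.0286. Without control sample 3 the log2 fold change was -0.16. Without Tuft cells in the denominator it was -0.29.

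**Figure D2:**
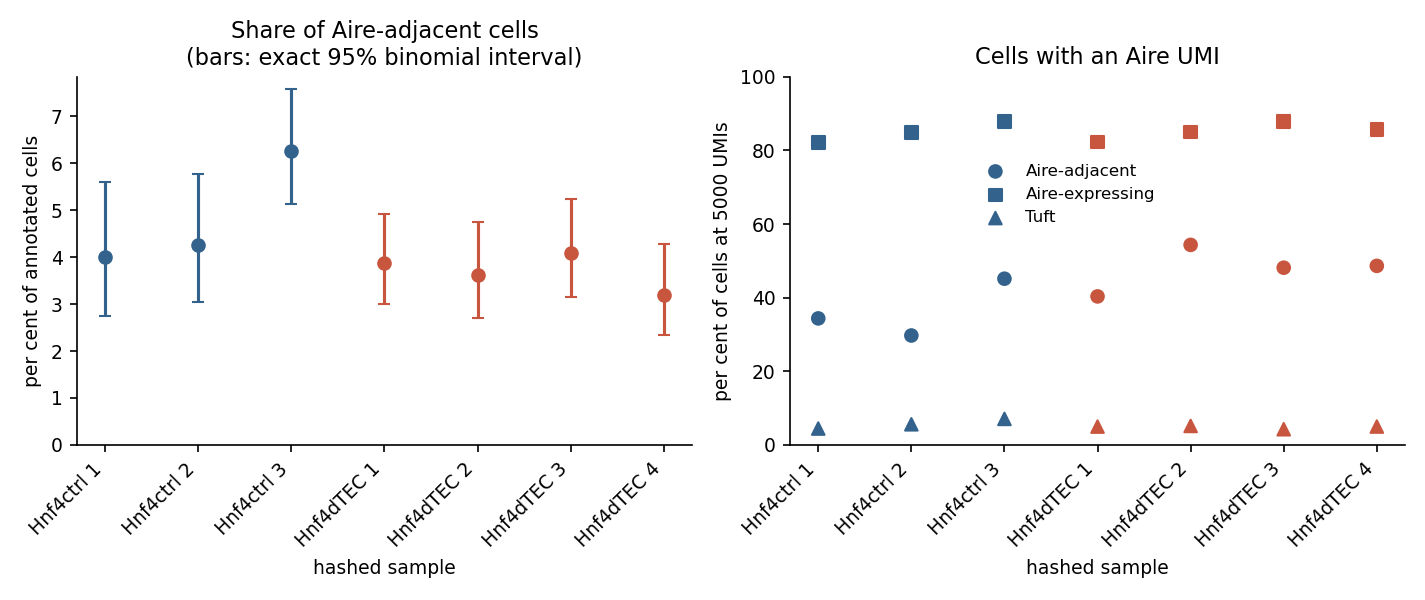
Left, share of annotated cells that were Aire-adjacent in each hashed sample, in per cent, with exact 95% binomial intervals that cover counting error only. Right, per cent of Aire-adjacent (circles), Aire-expressing (squares) and Tuft cells (triangles) with an Aire UMI at 5000 UMIs per cell; the Aire-adjacent circles run from 29.7 to 45.2% in controls and from 40.4 to 54.3% in mutants.

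The targeted genes gave little check of the genotype in this class. Hnf4a (mm10, chr2:163506808-163572910) gave 1 UMI in control and 0 in mutant Aire-adjacent cells, under the filter. Hnf4g (chr3:3508030-3658052) was at 218, 275 and 147 CPM in control and 215, 280, 275 and 289 CPM in mutant samples. From here on, CPM are scaled by the normalisation factors of the genotype fit. The values overlapped, with control sample 3 the lowest: the log2 fold change was 0.33 (SE 0.21), with an adjusted p of 0.979 in edgeR's quasi-likelihood test. Reads of a 3' assay can fall outside a deleted stretch, so this does not check the labels. In control cells before that scaling Hnf4g was at 201 ± 61.7 CPM, against 86.9 ± 23.4 CPM in Aire-expressing and 795 CPM in Entero-hepato cells.

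No gene passed the test between genotypes in Aire-adjacent cells. Of 8321 genes with enough counts, 0 had an adjusted p under 0.05 in edgeR's quasi-likelihood test with Benjamini-Hochberg adjustment, and 451 (5.42%) had an unadjusted p under 0.05. DESeq2 called 25 of the same 8321 genes, and limma on cells scaled to equal totals called 0. The DESeq2 calls held 9 of the 10 genes of lowest p named next, all but Cdhr5, with DESeq2 adjusted p-values from 1.83e-07 for Apoe and 4.77e-07 for Lypd8 to 0.0272 for Igfbp4. They also held Reg3g (0.0262), Mep1a (0.0251) and Anks4b (0.0429). The genes with the lowest p were Hopx, Tdh, Lypd8, Ttc36, Apoe, Sgms2, Lipc, Igfbp4, Epha6 and Cdhr5, of which 9 had lower values in the mutant samples and Epha6 higher. Their adjusted p-values were 0.108 to 0.157. In all 10 the control and mutant samples did not overlap, which a choice by lowest p between the same samples favours, so it is no further support. Over all genes tested, the controls lay wholly above the mutants in 3.38% and the mutants wholly above in 3.17%.

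**Figure D3:**
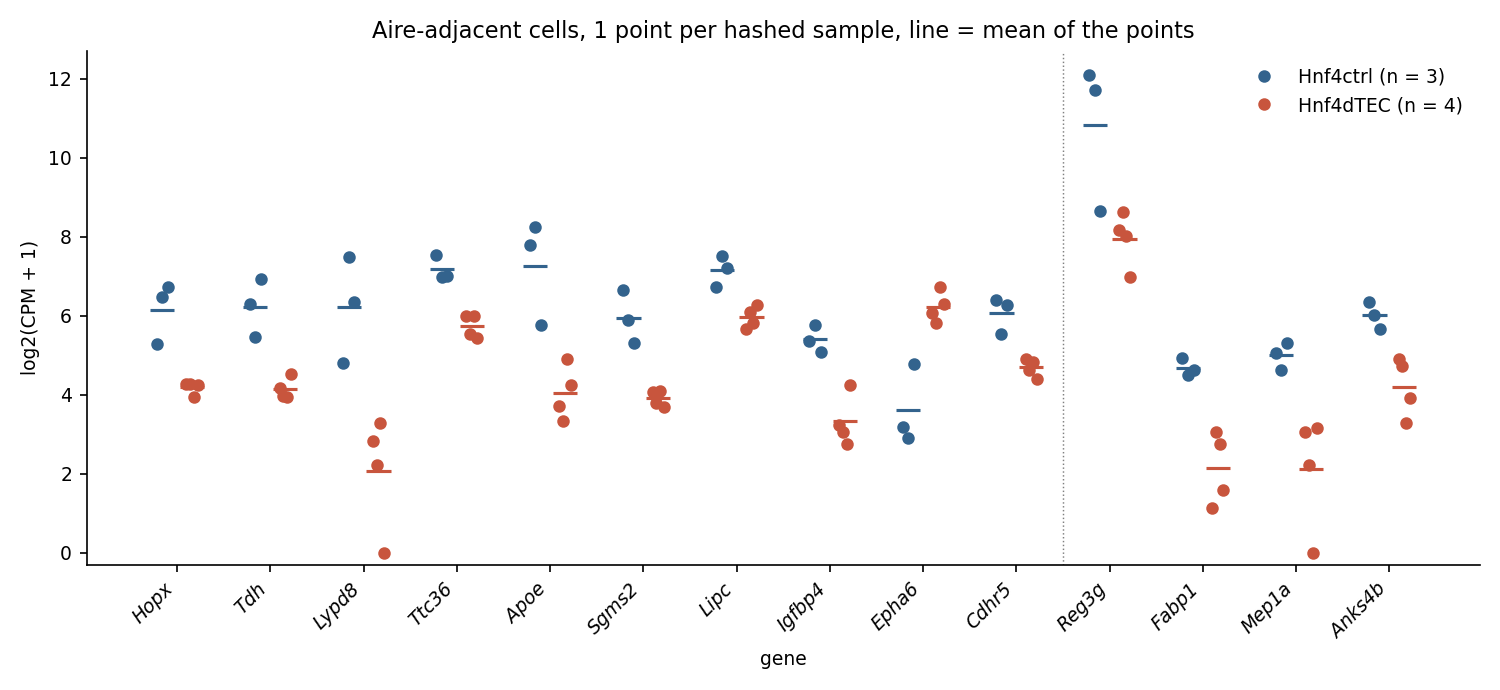
Level in Aire-adjacent cells of the 10 genes with the lowest p and, right of the dotted line, 4 further gut genes, as log2(CPM + 1) per hashed sample; horizontal lines are means of the points. The groups do not overlap in any of the 14 genes, and only Epha6 is higher in the mutant samples. The genes were chosen with these differences known, which favours a lack of overlap. None passed an adjusted p of 0.05 in edgeR's quasi-likelihood test.

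Lypd8, Lipc and Sgms2 are shown by promoter because they stand for the gut, liver and membrane lipid genes among these 10, a choice made after the matches were seen. The windows run from 250 bases before to 50 after a RefSeq start site (GRCm38.p6, the assembly of mm10), 5′ to 3′ on the gene's strand, with matches to CAAAGNNCA on either strand in capitals. Its letters are those of an HNF4-type site with 2 positions left free. They stand for chr11:58378782-58379081 (plus strand), chr9:70934759-70935058 (minus strand) and chr3:131344859-131345158 (minus strand) in turn.
Lypd8: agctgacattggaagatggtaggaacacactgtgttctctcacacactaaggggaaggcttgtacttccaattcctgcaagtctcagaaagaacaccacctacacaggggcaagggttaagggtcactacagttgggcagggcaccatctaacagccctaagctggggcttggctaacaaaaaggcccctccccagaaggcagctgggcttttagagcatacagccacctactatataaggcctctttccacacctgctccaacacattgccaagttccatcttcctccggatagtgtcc
Lipc: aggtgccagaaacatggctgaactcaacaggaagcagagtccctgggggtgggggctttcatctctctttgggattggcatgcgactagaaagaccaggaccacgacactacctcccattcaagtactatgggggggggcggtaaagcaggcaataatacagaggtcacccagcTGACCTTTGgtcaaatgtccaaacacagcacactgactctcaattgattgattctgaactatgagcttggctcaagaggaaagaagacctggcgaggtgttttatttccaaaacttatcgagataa
Sgms2: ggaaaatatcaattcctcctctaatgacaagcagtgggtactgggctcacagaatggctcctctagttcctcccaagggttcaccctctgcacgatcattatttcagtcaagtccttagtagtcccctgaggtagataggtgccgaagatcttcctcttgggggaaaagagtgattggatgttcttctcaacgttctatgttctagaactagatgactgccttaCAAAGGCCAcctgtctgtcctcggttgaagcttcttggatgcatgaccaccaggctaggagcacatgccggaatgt
The Lypd8 window held no match. The match of Lipc began at -76 from the start site on the opposite strand, and that of Sgms2 at -26 on the gene's strand. Of the 10 genes, 8 had a RefSeq window and 2 of these held CAAAGNNCA in at least 1 window, against 7.27% of 27025 genes. The full CAAAGTCCA was in 0 of the 8 and in 0.555% of all genes. A match is a stretch of letters and was not tested for binding, and Sgms2 has 6 windows, each a chance to match.

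The gut barrier gene Lypd8 (chr11:58379043-58390728), whose product keeps flagellated bacteria off the colon wall, was at 27.0, 178 and 80.7 CPM in controls and, by contrast, at 6.06, 3.66, 8.72 and 0 CPM in the mutant samples. All controls lay above all mutants, with wide spread among controls. The log2 fold change was -4.20 (SE 0.66), with an adjusted p of 0.108. Lypd8 had a UMI in 34 of 170 control and 8 of 219 mutant cells, against 2.05 and 1.72% of Tuft cells, but 1 control cell held 66 of its 191 control UMIs. Cdhr5, a protocadherin of the brush border, was at 83.6, 45.1 and 76.6 CPM against 29.1, 23.8, 27.6 and 20.04 CPM, and it was seen in 40.6% of control and 20.5% of mutant cells, both below Tuft cells at 53.3 and 44.0%. Its log2 fold change was -1.42 (SE 0.26), with an adjusted p of 0.157. Before normalisation factors, mean Cdhr5 in control and mutant was 190 and 32.8 CPM in Microfold and 33.9 and 8.14 CPM in Keratinocyte cells. It was 21.4 and 10.2 CPM in Aire-expressing and 7.82 and 12.7 CPM in Ciliated cells. The differences in Microfold, Keratinocyte and Ciliated cells were not tested.

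Hopx, a small homeodomain protein of epithelial and cardiac cells, was at 37.7, 88.0 and 105 CPM in the control samples and between 14.5 and 18.3 CPM in all 4 mutant samples. A Hopx UMI was in 62 of 170 control and 27 of 219 mutant cells with at most 12 UMIs in a cell. In Tuft cells, given for comparison at a median of 12186 UMIs against 11325, a Hopx UMI was in 13.6% of control and 5.32% of mutant cells (means over samples). Hopx was also at 118 ± 5.26 CPM in control and 16.1 ± 4.19 CPM in mutant Neuroendocrine cells, and at 167 ± 59.8 and 99.2 ± 23.9 CPM in Keratinocyte cells. In Aire-adjacent cells the log2 fold change of Hopx was -2.21 (SE 0.33), with an adjusted p of 0.108. Tdh, threonine dehydrogenase, was at 78.2, 42.9 and 120 CPM against 17.0, 14.7, 14.5 and 22.0 CPM, and 79 of its 195 control UMIs were in 1 cell.

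Genes of liver and lipid handling were also among the 10. Ttc36 was at 186, 125 and 128 CPM against 63.1, 45.8, 62.5 and 42.1 CPM (log2 fold change -1.41, SE 0.22). Lipc, hepatic lipase, was at 105, 182 and 147 CPM against 49.7, 67.8, 55.2 and 76.2 CPM (log2 fold change -1.24, SE 0.23), and was seen in 49.4% of control and 30.6% of mutant cells, against 42.8 and 41.9% of Tuft cells. Neither rested on 1 cell, since the richest control cell held 15.96% of Ttc36 and 10.3% of Lipc UMIs. Apoe, the lipid carrier apolipoprotein E, was at 221, 301 and 53.5 CPM against 12.1, 9.16, 29.1 and 18.0 CPM, and here 130 of 287 control UMIs came from 1 cell, with a UMI in 19 control and 19 mutant cells, a lower share than the 15.4 and 18.0% of Tuft cells. Sgms2, sphingomyelin synthase 2, was at 99.8, 58.0 and 38.7 CPM against 15.8, 12.8, 15.98 and 12.03 CPM. Igfbp4, an insulin-like growth factor binding protein, was at 40.4, 53.7 and 33.0 CPM against 8.49, 7.33, 5.81 and 18.0 CPM. Epha6, an ephrin receptor, was at 8.09, 6.44 and 26.4 CPM in control and 66.7, 55.0, 105 and 78.2 CPM in mutant samples (log2 fold change 2.18, SE 0.40), and was seen in 9.41% of control and 20.1% of mutant cells, against 14.7 and 16.8% of Tuft cells. Without control sample 3 its log2 fold change was 3.37.

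The gut list of 40 genes held 12 that could be tested, of which 0 passed. All 12 had a log2 fold change below 0, with a median of -0.65 against -0.01 over all genes tested, and 6 were lower at an unadjusted p under 0.05, against 2.98% of all genes tested: Mep1a, Cdhr5, Anks4b, Calml4, Lypd8 and Reg3g. Over all genes tested, 4250 of 8321 were below 0. These counts describe only members with enough UMIs, and a gene can reach that minimum through the genotype where it is high. The lists were also chosen with earlier results of these data known, so their counts and medians are not independent support. Cdx1, a gut transcription factor, had a log2 fold change of -0.06, Dgat2 of -0.07, Espn of -0.16, Plac8 of -0.29, Gpa33 of -0.36 and Mep1b of -0.60. The list of 20 entero-hepato markers held 9 tested genes, of which 0 passed, 8 were below 0 and 7 were lower at an unadjusted p under 0.05. Its median was -1.67, and 5 of those 7 are also in the gut list.

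Reg3g (chr6:78466269-78468872), an antimicrobial lectin of the gut, made up most of both lists' sums in control samples 1 and 2, and less than the other members together in the other 5 samples. It was at 4392, 3356 and 402 CPM in control and 287, 392, 260 and 124 CPM in mutant samples. The groups did not overlap, but control sample 3 lay close to the highest mutant sample. Its log2 fold change was -3.34 (SE 0.62), with an adjusted p of 0.157. A Reg3g UMI was in 84 control and 84 mutant cells, 49.4 and 38.4% of each against 24.0 and 22.6% of Tuft cells. In Aire-expressing cells, which were deeper, the shares were 72.6 and 71.5% (means over samples). At 5000 UMIs per cell they were 51.8 and 45.5% there, and 35.1 and 26.6% in Aire-adjacent cells. Before normalisation factors, mean Reg3g in control and mutant was 6969 and 1732 CPM in Microfold and 2093 and 999 CPM in Neuroendocrine cells. It was 53.2 and 75.1 CPM in Transitional cells, and these 3 classes were not tested. Of the 3680 control UMIs in Aire-adjacent cells, 1 cell held 1359.

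Summed over all members, tested or not, the entero-hepato list was at 4693, 3927 and 934 CPM in control and 616, 793, 615 and 505 CPM in mutant samples, before normalisation factors. Without Reg3g, its 19 other members summed to 574, 735 and 557 CPM in control and 336, 421, 370 and 389 CPM in mutant samples. The 39 gut genes other than Reg3g summed to 1199, 1101 and 1191 CPM against 900, 928, 740 and 660 CPM. The sums did not overlap with or without Reg3g, and the spread between controls was smaller once it was left out. These sums hold members already named as lower, and the lists were chosen with earlier results of these data known. Their lack of overlap is therefore no independent support.

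Fabp1, which binds fatty acids in gut and liver, was at 29.7, 21.5 and 23.9 CPM against 1.21, 7.33, 5.81 and 2.004 CPM. Mep1a, a brush border protease, was at 32.4, 23.6 and 38.7 CPM against 7.28, 3.66, 0 and 8.02 CPM. Anks4b, a scaffold of brush border microvilli, was at 80.9, 64.4 and 49.4 CPM against 29.1, 25.6, 8.72 and 14.0 CPM. In each of these genes all control samples lay above the mutants. A choice by unadjusted p between the same samples favours that, so it is no further support. Over all genes tested, the controls lay wholly above the mutants in 3.38%. Fabp1 and Mep1a had few UMIs in the mutants, 10 and 12 in all. Their log2 fold changes were -2.59 (SE 0.51), -2.74 (SE 0.55) and -1.67 (SE 0.36), with adjusted p-values of 0.159, 0.172 and 0.239 in edgeR's quasi-likelihood test. Calml4, a calmodulin-like brush border protein, had a log2 fold change of -0.69 (adjusted p 0.798) with samples that did not overlap, and of -0.43 without control sample 1.

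**Figure D4:**
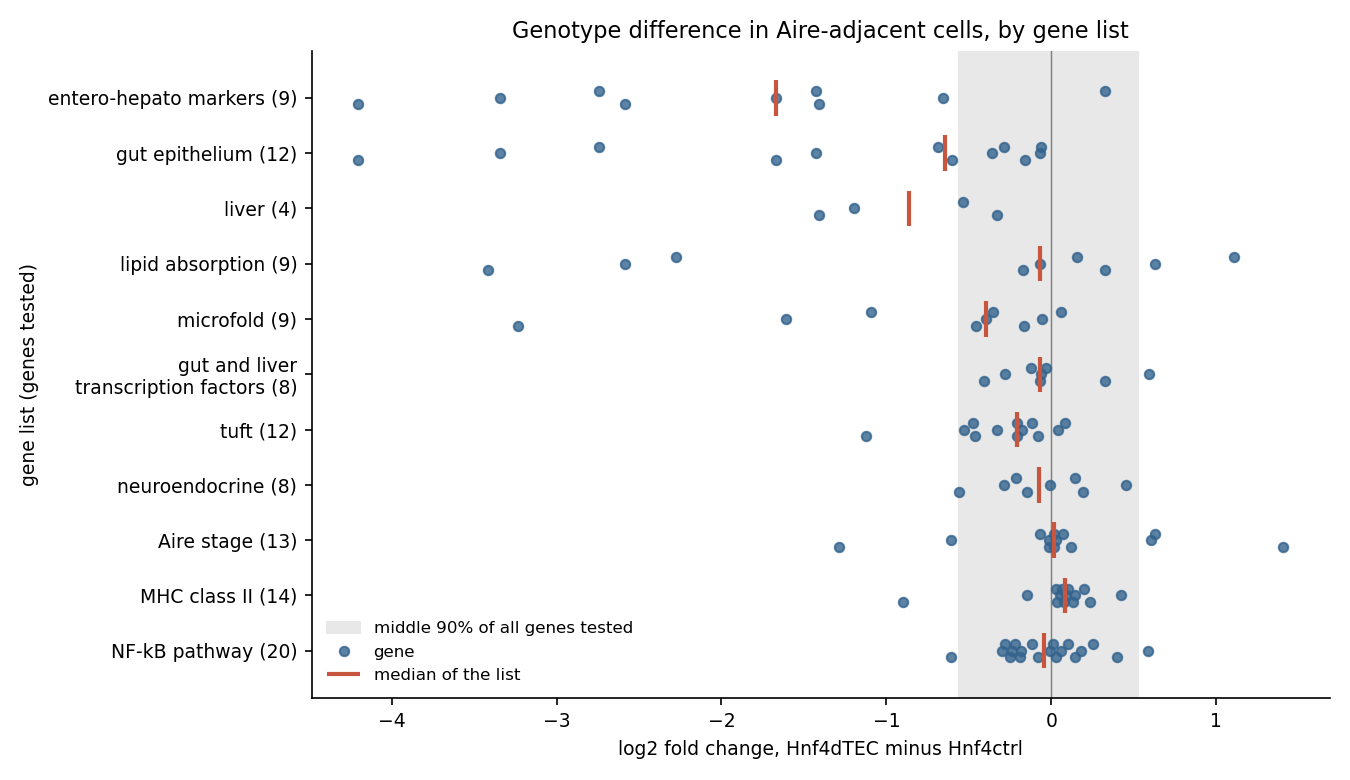
Log2 fold change (Hnf4dTEC minus Hnf4ctrl) of each tested gene in 11 lists within Aire-adjacent cells; points are genes, vertical marks list medians, and the grey band the middle 90% of all genes tested. The medians are -1.67 for entero-hepato markers and -0.65 for gut genes, and 0.08 for MHC class II. The lists were chosen with earlier results of these data known.

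Of 40 liver genes 4 were tested, with a median of -0.86, and 0 passed. Trf, C3 and Saa1 were lower at an unadjusted p under 0.05, against 2.98% of all genes tested. C3, complement component 3, was at 749, 350 and 502 CPM against 315, 322, 369 and 465 CPM, so the groups overlapped. Alb, Cyp7a1, Cyp3a11 and Tat, which define hepatocytes, were at 0 UMIs in all samples of the class. In the lipid absorption list 9 of 25 were tested and 0 passed, with a median of -0.07. Apoe, Fabp1 and Apoc1 were lower and none higher at an unadjusted p under 0.05, against 2.98% lower and 2.44% higher of all genes tested. Fabp6, a bile acid binding protein, stood at a log2 fold change of 1.11 and Plin2, a lipid droplet protein, at 0.63. Fabp6 gave 12, 48 and 35 UMIs in control and 167, 2, 3 and 121 UMIs in mutant samples. Its change thus rested on mutant samples 1 and 4. Of 28 gut and liver transcription factors 8 were tested and 0 passed, with a median of -0.07 and none under an unadjusted p of 0.05; Klf5 was at -0.41 and Rxra at 0.59.

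The number of Entero-hepato cells moved with genotype, at 8, 19 and 55 in controls and 2, 1, 0 and 0 in mutants, and its part in these differences was not tested. In control Aire-adjacent cells Tff3 was at 13.8 CPM, Apoc3 at 7.17 CPM and Lgals4 at 4.24 CPM, while Reg3g was at 2563 CPM, Cdhr5 at 64.3 CPM, Anks4b at 61.1 CPM and Lipc at 137 CPM. In Entero-hepato cells the same genes were at 2168, 1331, 897, 9676, 333, 95.3 and 139 CPM. Of the 3680 Reg3g UMIs of control Aire-adjacent cells, 1 cell held 1359. Tuft cells had a median of 1 entero-hepato UMI per cell in both genotypes. What part Entero-hepato cells or their RNA had in the Aire-adjacent levels was not tested. In bulk sums of a class, fewer cells with a programme and less RNA per cell cannot be told apart.

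Per cell, thinned to 5000 UMIs, Aire-adjacent cells had a median of 3 entero-hepato UMIs in controls and 2 in mutants, against 40 in control Entero-hepato cells and 3 in control Aire-expressing cells. At least 9 such UMIs, the lower decile of Entero-hepato cells, were in 6 of 32, 6 of 37 and 11 of 93 control cells and in 3 of 57, 4 of 46, 6 of 54 and 0 of 37 mutant cells. The groups did not overlap, with 11.8 to 18.8% in controls and 0 to 11.1% in mutants. Reaching 9 UMIs does not mark Entero-hepato cells alone. With control samples pooled, 25.3% of Aire-expressing cells reached it, against 14.2% of Aire-adjacent cells.

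**Figure D5:**
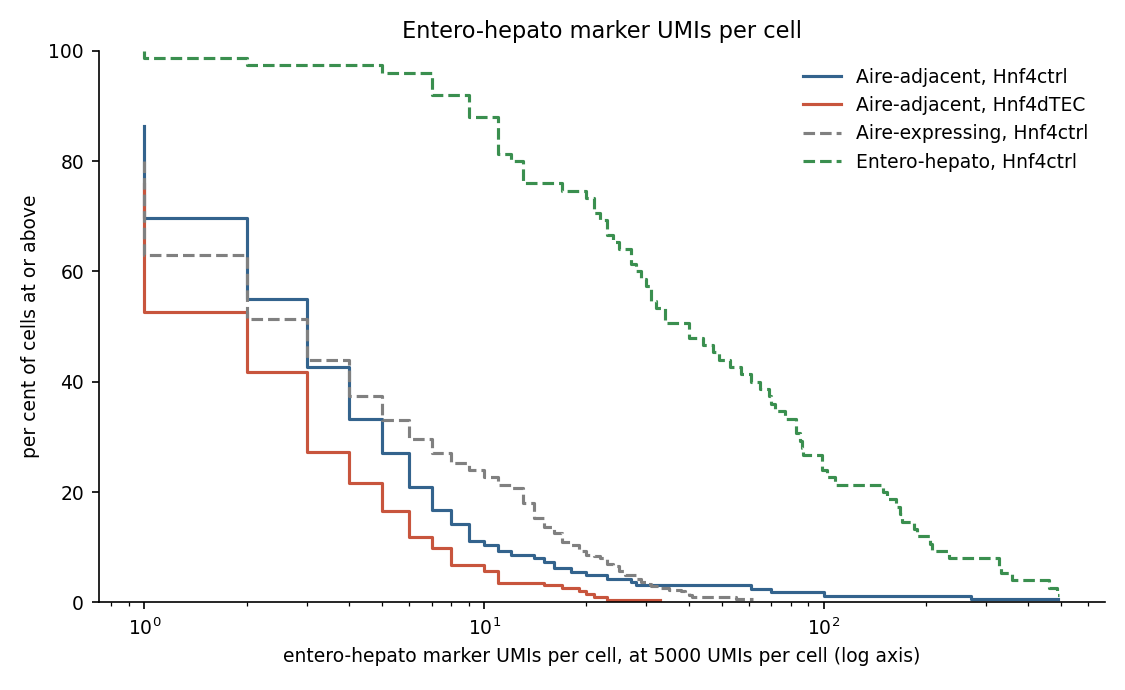
Per cent of cells (y axis) with at least a given number of entero-hepato marker UMIs (x axis, log scale) after thinning each cell to 5000 UMIs, with all samples of a genotype pooled. Aire-adjacent cells have medians of 3 (control) and 2 (mutant) such UMIs, and Entero-hepato cells of 40.

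Aire and the genes of its stage did not pass the test. Aire (chr10:78030022-78043610) was at 210, 146 and 265 CPM in control and 213, 337, 365 and 367 CPM in mutant samples. Of the 4 mutant samples 3 lay above every control, and mutant sample 1 lay among them. The log2 fold change was 0.61 (SE 0.24), with an adjusted p of 0.813 in edgeR's quasi-likelihood test. At 5000 UMIs per cell, an Aire UMI was in 34.4, 29.7 and 45.2% of control and 40.4, 54.3, 48.1 and 48.6% of mutant Aire-adjacent cells. The means, 36.4 ± 7.92% and 47.9 ± 5.75%, differed by 11.5 percentage points (two-sided exact permutation p = 0.114). In Tuft cells, which should lack Aire, the share was 5.70% in controls and 4.85% in mutants, and in Aire-expressing cells 85.0 and 85.2%. Without thinning the Aire-adjacent shares were 51.1 and 62.2%.

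Of 15 Aire stage genes 13 were tested and 0 passed, with a median log2 fold change of 0.02. Aire, Cd86 and Skint2 were higher and Cd40 lower at an unadjusted p under 0.05, against 2.44% of all genes tested higher and 2.98% lower. Skint2 was at 472, 547 and 465 CPM against 714, 639, 745 and 962 CPM, without overlap. The costimulatory ligand Cd86 was at 10.8, 10.7 and 13.2 CPM against 42.4, 33.0, 11.6 and 42.1 CPM. Tnfrsf11a, the RANK receptor that drives medullary maturation, was at a log2 fold change of 0.03, Cd80 at -0.07 and Foxn1 at -0.26. Foxn1 was at -0.12 without control sample 1, -0.46 without control sample 3 and -0.099 without mutant sample 2, and Cd40, at -0.61, was at -0.36 without control sample 3.

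All 14 MHC class II genes were tested and 0 passed. Their median was 0.08 and 12 were above 0, with H2-Aa at 4254, 3611 and 4793 CPM against 3549, 4204, 4780 and 5570 CPM. Over all genes tested 4071 of 8321 were above 0, and members of a list are not independent replicates. Of 22 NF-kB pathway genes 20 were tested and 0 passed, with a median of -0.04. Map3k14, which encodes the kinase NIK, was higher and Cd40 lower at an unadjusted p under 0.05. Over all genes tested 2.44% were higher and 2.98% lower at that level, and 1 gene each way among 20 is near that share. Map3k14 was at 62.0, 68.7 and 65.9 CPM against 76.4, 86.1, 90.1 and 146 CPM, and its log2 fold change of 0.59 was 0.35 without mutant sample 4. In the microfold list 9 of 11 were tested and 0 passed, with a median of -0.40. Gp2, Ccl9 and Pglyrp1 were lower at an unadjusted p under 0.05, against 2.98% of all genes tested. Gp2, a microfold cell receptor, was at 329, 268 and 18.9 CPM against 30.3, 5.50, 23.2 and 20.04 CPM, and 121 of its 270 control UMIs were in 1 cell. Of 14 tuft genes 12 were tested and 0 passed, with a median of -0.21, and the list summed to 1499 to 1831 CPM in control and 503 to 1928 CPM in mutant samples. Of 15 neuroendocrine genes 8 were tested and 0 passed, with a median of -0.08.

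The genotype difference in Aire-adjacent cells was set against that in Aire-expressing cells in one fit over 11975 genes, with sample as a block. No gene passed the test of the difference at an adjusted p under 0.05 in edgeR's quasi-likelihood test, and 558 (4.66%) had an unadjusted p under 0.05, 2.36% with a negative and 2.3% with a positive difference. In Aire-expressing cells alone 0 of 12931 genes passed between genotypes and 5.15% had an unadjusted p under 0.05 (2.58% lower, 2.57% higher). Lypd8 had the lowest p: its log2 difference between the classes was -4.73 (SE 0.79, adjusted p 0.681), with a genotype log2 fold change of 0.36 in Aire-expressing cells. Alox12e (1.05), Il4 (-4.81), Glis3 (-2.18), Mucl2 (-3.51), Gm31545 (7.37), Gm20757 (2.96), Cnn1 (-8.26), Slc22a22 (2.73) and Nampt (0.77) followed and did not pass. Limma with voom and a correlation between classes of a sample called 0.

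Against all other annotated cells without Entero-hepato cells, 1 of 17943 genes passed (0.00557%), and 788 (4.39%) had an unadjusted p under 0.05, 2.19% with a negative and 2.2% with a positive difference. That gene was Pth, parathyroid hormone, with an adjusted p of 0.00223. In Aire-adjacent cells it gave 1, 3 and 5 UMIs in the control and 0 in all 4 mutant samples, each UMI in a different cell. Single cells held most of its UMIs in TA and Tuft cells of the mutants: 1 TA cell held 11521 of the 11524 UMIs of its class in mutant sample 2, and 1 Tuft cell held 11792 UMIs. In Keratinocyte cells, by contrast, 39 cells held 1 UMI each. Limma voom did not call Pth.

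Ttc36 came next and did not pass, with a log2 difference of -1.40 (SE 0.21, adjusted p 0.0598) and a genotype log2 fold change of -0.00069 in the other cells. Apoe (-2.98, adjusted p 0.162), Tdh (-2.03), Cfap53 (2.30), Lipc (-1.21), Lypd8 (-3.10), 4930500H12Rik (-3.32), Fxyd6 (-1.18) and Pla2g1b (-3.97) followed. Tuft cells made up 44.8% of all annotated cells, so a flat sum can hide falls in other classes. Before normalisation factors, Ttc36 averaged 708 CPM in control and 168 CPM in mutant Klk-rich cells, and 119 and 129 CPM in Tuft cells. Its Klk-rich controls spread widely (SD 491 CPM). Lipc was at 162 and 45.5 CPM in Klk-rich, 136 and 71.7 CPM in Neuroendocrine, and 146 and 154 CPM in Tuft cells. Lypd8 was at 154 and 8.81 CPM in Microfold, 126 and 53.1 CPM in Neuroendocrine, and 39.3 and 56.3 CPM in Aire-expressing cells. Apoe was at 99.9 and 18.4 CPM in Neuroendocrine and 702 and 722 CPM in Immature cells. Tdh was at 108 and 36.7 CPM in Klk-rich and 82.2 and 92.3 CPM in Transitional cells. Apart from those in Aire-expressing cells, these differences were not tested by class. Anks4b and Calml4 were among 10 genes (0.0475% of 21039) lower in the other cells at an adjusted p under 0.05, where 5.31% had an unadjusted p under 0.05 (3.31% lower, 2% higher). These comparisons share their samples. Anks4b had a log2 fold change of -1.83 there and -1.67 in Aire-adjacent cells, and Calml4 -0.74 and -0.69. Their differences between the populations, 0.12 (SE 0.42) and 0.06 (SE 0.24), did not pass. Hnf4g had a log2 difference of 0.74 (SE 0.22, adjusted p 0.825), from -0.37 in the other cells.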

How the data were processed

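Single-cell RNA was measured in 7 hashed samples of one 10x run. The deposited matrix holds raw UMI counts of 55487 genes, made with Cell Ranger 6.1.0 on mm10 and annotated with Seurat 4.0.2 per the submitters' processing notes; the matrix header names version 7.0.0. Cells, classes and samples were taken from the authors' deposited annotation, so their cell filters apply. Doublets were marked with Scrublet over 14506 barcodes (184 annotated cells) and kept. Counts were summed per class and sample. Genes passing edgeR's default filter by expression were tested with edgeR 4.0.16 (quasi-likelihood, TMM factors, Benjamini-Hochberg adjustment, R 4.3.3); DESeq2 1.42.0 and limma 3.58.1 were alternatives. Differences between populations were interactions with sample as a block. Shares of classes used edgeR on cell counts. Thinning drew 5000 UMIs per cell; sub-clusters came from scanpy 1.11.5 (Leiden, resolution 1, 20 components). The tests were tried on simulated counts first. Replicate numbers did not pair the samples (same-number correlations 0.034, 0.032 and -0.089). No sample pair was alike within sampling noise (chi-square per degree of freedom at least 2.85). Gene positions came from GENCODE vM21, whose identifiers matched 54435 genes, and promoters from RefSeq. Genes named are the targeted genes with Foxn1 and Aire, the 10 lowest p of each comparison where fewer than 10 passed, the leading genes of the class at 50 CPM or more, and list members by role and level. The members and the 35 lists (502 of 505 genes found) were chosen with earlier results of these data known. Antibody counts and the hash-tag library were not analysed here beyond sample assignment. Some genes that the rule would name are not reported here.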

Additional observations from a re-analysis of the deposited data

Results flagged for a closer look

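Among the 4 mutant samples, Hopx was at 14.5 CPM in sample 3 and between 18.0 and 18.3 CPM in the other samples, so that sample lay far from the rest for its group's narrow range. It was 1 of 35 groups of 4 samples looked at, and chance sets about 1 in 20 such groups apart.

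Pth differed between Aire-adjacent and all other annotated cells in its genotype change, by a fitted log2 difference of -14.6 (adjusted p 0.00223, edgeR's quasi-likelihood test). That size depends on the prior count, because all 4 mutant samples were at 0 UMIs in Aire-adjacent cells. The 9 control UMIs stood in 9 cells.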

How the results depend on the processing

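Of the settings tried, none took the Hnf4g difference, the share of the class or the share of cells with an Aire UMI past its threshold. Leaving out each sample in turn, Hnf4g ran from 0.10 to 0.56 on the log2 scale, the share from -0.52 to -0.16, and the Aire share from 8.11 to 15.8 percentage points. The count of genes called between genotypes in the class, 0, became 279 without a filter on low counts (160 lower; 156 of the 279 were also in the filtered fit) and 25 with DESeq2 (19 lower). It was 0 with relative log expression factors, a stricter filter, the replicate block, without marked doublets and without the tuft-marker-rich sub-cluster, a setting chosen after seeing the data. Leaving out samples gave 0 to 9: 2 without control sample 1 (Hopx, Lypd8), 1 without control sample 2 (Tdh), 9 without control sample 3 (among them Reg3g, Apoe, Gp2, Sgms2 and Epha6) and 0 without any mutant sample. Against Aire-expressing cells the count of 0 became 163 with no filter and 0 to 2 with a sample left out (2 without control sample 1). Against all other cells the count of 1 became 156 with no filter, 0 with limma voom, and 1 to 14 with a sample left out (14, 7 and 10 without control samples 1, 2 and 3, and 2 without mutant sample 1). The causes were not tested. The log2 change of Fezf2, 0.02, changed sign to -0.091 with the replicate block and -0.059 without that sub-cluster, and ran from -0.075 to 0.143 with a sample left out, below 0 without control sample 3 or mutant samples 3 or 4. The entero-hepato median ran from -2.04 to -1.39 and the liver median from -0.92 to -0.55 with a sample left out. Without control sample 1 the gut median was -0.36, and Saa1 was at -2.28 without mutant sample 2. The medians of the lipid absorption, Aire stage, MHC class II, NF-kB, tuft and neuroendocrine lists, all within 0.21 of 0, changed sign without at least 1 of the samples. The replicate block gave -0.31 for the share (adjusted p 0.898) and changed no call. Hnf4a had too few UMIs for any fit. Samples of 32 to 99 cells limit what could be detected, and single rich cells weigh on sums of Reg3g, Apoe, Tdh and Lypd8.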

Other observations

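Other gene groups of Aire-adjacent cells were also compared between genotypes, and 0 genes passed in each. Of 16 chemokine genes 11 were tested, with a median log2 fold change of -0.35, and Ccl21a, which draws thymocytes into the medulla, was at 1030, 797 and 767 CPM in control and 714, 742, 657 and 583 CPM in mutant samples. The controls lay above the mutants, and the adjusted p was 0.860. Of 19 interferon genes 12 were tested, with a median of -0.21 and 10 below 0, against 4250 of 8321 over all genes tested. Members of a list are not independent replicates. Of 16 dissociation stress genes 14 were tested, with a median of -0.11. Of 18 apoptosis genes 16 were tested, with a median of 0.06. Tbata, a spermatogenesis-linked gene of the cortical thymic epithelium list, was at 987 ± 570 CPM in control Aire-adjacent cells against 568 CPM in Aire-expressing cells, while Psmb11, the thymoproteasome subunit that defines cortical cells, was at 2.56 CPM.

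The neuroendocrine list summed to 5570 ± 511 CPM in control Aire-adjacent cells and to 5661 CPM in mutants, against 2036 CPM in Aire-expressing and 11257 CPM in Neuroendocrine cells. By number of cells, the ratio of Aire-adjacent to Aire-expressing cells was 1.14, 0.574 and 0.478 in the control and 0.660, 0.562, 0.484 and 0.259 in the mutant samples, so the groups overlapped.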
